A study of Homo sapiens with 63 samples.

Results

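The proteasome is the protease that degrades ubiquitin-tagged proteins, and 34 of its genes were followed across all arms and times of the study. They were the 7 alpha and 7 beta subunit genes of the 20S core, the 6 ATPase and 12 non-ATPase genes of the 19S regulatory particle, the assembly factor gene POMP, and PSME4, which encodes an alternative activator. They were chosen by name, with earlier results of these data known, and all 34 were found among the 58336 genes of the count table. RNA was sequenced from HEK293T cells, an established line derived from human embryonic kidney, that expressed Halo, a protein tag that binds a chemical ligand covalently.

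Libraries came from cells given ibufenac or ibuprofen in a probe form, a photocaged form or as a bolus, or given DMSO, at 6, 12 and 18 h. Ibufenac lacks the α-methyl group that ibuprofen carries next to its carboxylic acid, and both drugs can be converted to acyl glucuronides, which react with proteins. Per the study's design text, the Halo-binding precursors Ht-Pre-AG-ibufenac and Ht-Pre-AG-ibuprofen were applied at 10 µM for 2 h, and light of 365 nm was given for 3 min at 5 mW/cm2 after washout. Neither the labels nor the design text say what sets the probe arms apart from the photocaged ones, which arms were lit, how high the bolus dose was, or how DMSO cells were handled. With 3 libraries in each of 21 groups there were 63 libraries. The labels do not say that replicates were separate cultures, so p-values may measure technical spread.

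Library totals ran from 12139918 to 38377150 counts, with a median of 19605077. NEFL, NEFM, INA, LIN28B and EYA1, neuronal and developmental genes used as markers of HEK293 lineage cells, were detected in every library, whereas PAX2 was near 0 (median 0.047 FPKM). Defining markers of hepatocytes, blood cells and fibroblasts were at or near 0, with ALB at a median of 0.661 FPKM and COL1A1 at 1.29 FPKM, the highest of those lists. The third replicates of the ibufenac bolus at 6 h and at 18 h stood apart from their groups, and a count of called members that moves by over 1.5 times without them is given both ways. The labels name no batch, and the column headers of the tables give all 63 libraries the same one.

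In the 20S core, outer rings of alpha subunits gate the entry of substrate to inner rings of beta subunits, of which PSMB5, PSMB6 and PSMB7 carry the proteolytic sites. The 19S particle binds ubiquitin chains, removes them and unfolds the substrate with a ring of ATPases. When proteasome activity is short in human cells, the transcription factor NRF1, encoded by NFE2L1, is cleaved by the protease DDI2 and raises most subunit genes together through antioxidant response elements.

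Except for PSMD5, the proteasome genes were abundant and even. Levels are compared between genes as FPKM, which scales a count by gene length and depth. The median of the other 33 genes was 77.8 FPKM, against 4.01 FPKM for all 19352 tested genes. Over the 63 libraries the medians of single genes ran from 19.4 FPKM for PSME4 to 222 FPKM for PSMB1, an 11.4-fold span. By role, the median gene stood at 135 FPKM among the beta subunits, 92.5 FPKM among the alpha subunits, 73.2 FPKM among the ATPases and 57.7 FPKM among the other 19S subunits. Each of these genes varied little over the 21 groups: its highest group mean was between 1.21 times (PSMB4) and 1.62 times (PSMB2 and PSME4) its lowest.

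**Figure D1:**
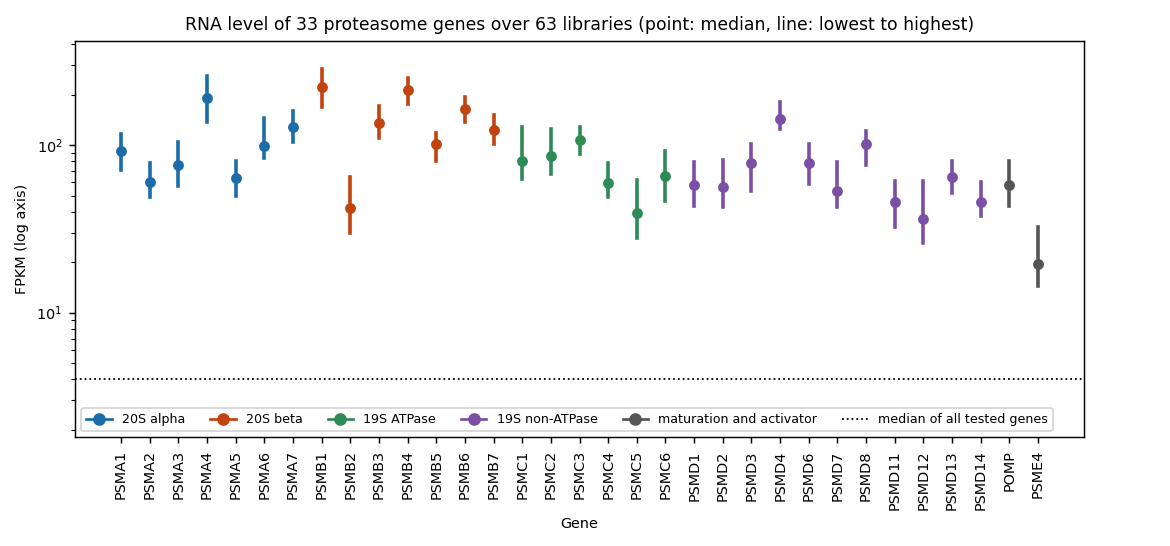
FPKM of 33 proteasome genes on a log axis, with points for the median of 63 libraries and lines from the lowest to the highest library, coloured by role. PSMB1 (222 FPKM) is at the top and PSME4 (19.4 FPKM) at the bottom, and every gene lies above the dotted median of all tested genes (4.01 FPKM).

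PSMD5, a chaperone that holds 19S base subunits during assembly, was barely detected. It had 196 counts in all 63 libraries together, 0 in 17 of them, and at most 16 in one. The highest level was 0.787 CPM, counts scaled to a common library size with TMM factors, and 22 libraries exceeded the floor of 3 counts, which corresponds to 0.0782 to 0.247 CPM per library. PSMD5 overlaps CUTALP on the opposite strand on chromosome 9. Its fold changes carry no information at this depth, and it passed no test, so levels below refer to the other 33 genes while counts are out of 34. PSMC1, an ATPase gene on chromosome 14, is uncertain for another reason: pseudogenes named after it held 20.4% of the combined counts, and the counting could have split reads between them. For several members the annotation has overlapping genes, among them PSMA3 with PSMA3-AS1, PSMA2 with MRPL32, PSMC2 with DNAJC2 and PSMD1 with HTR2B. The kit was stranded per the labels, but whether the counting used strand is not stated, so reads of opposite genes may be mixed.

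Of the 34 genes, 29 have an entry in the RefSeq promoter table (GRCh38.p14), and PSMA7, PSMB1, PSMB6, PSMB7 and PSMD4 do not. The 250 bases before the RefSeq start are shown, 5′ to 3′ on the gene's strand, for the 3 genes with the steepest falls in the ibufenac probe arm at 6 h (POMP, PSMD12, PSMA3) and for PSMD11, the steepest to fall with time in DMSO. Capitals mark any match, on either strand, to TGACNNNGC (the core of the antioxidant response element), to ACTACA and TCCC with any NN between them (a core bound by ZNF143), or to CCAAT (the CCAAT box). None of the matches shown overlap.
POMP: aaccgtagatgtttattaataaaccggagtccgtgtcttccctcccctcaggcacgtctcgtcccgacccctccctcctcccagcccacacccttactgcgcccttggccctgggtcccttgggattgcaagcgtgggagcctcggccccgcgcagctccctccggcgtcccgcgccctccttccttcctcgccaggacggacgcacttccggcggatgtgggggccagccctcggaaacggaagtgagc
PSMD12: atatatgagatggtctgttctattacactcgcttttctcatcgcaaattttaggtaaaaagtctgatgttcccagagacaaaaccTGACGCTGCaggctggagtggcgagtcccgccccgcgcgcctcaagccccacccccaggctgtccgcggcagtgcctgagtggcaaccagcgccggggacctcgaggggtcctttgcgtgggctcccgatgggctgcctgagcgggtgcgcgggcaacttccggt
PSMA3: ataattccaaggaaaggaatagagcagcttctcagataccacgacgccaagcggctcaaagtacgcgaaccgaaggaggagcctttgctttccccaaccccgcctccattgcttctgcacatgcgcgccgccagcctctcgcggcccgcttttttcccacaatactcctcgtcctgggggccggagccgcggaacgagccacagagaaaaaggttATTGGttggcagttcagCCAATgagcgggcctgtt
PSMD11: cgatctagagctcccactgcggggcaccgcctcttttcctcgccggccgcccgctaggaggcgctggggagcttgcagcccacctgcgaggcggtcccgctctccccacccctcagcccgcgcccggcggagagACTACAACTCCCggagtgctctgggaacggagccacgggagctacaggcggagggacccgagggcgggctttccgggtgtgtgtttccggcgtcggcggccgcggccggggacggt
The windows lie at chr13:28658880-28659129 on the plus strand, chr17:67366578-67366827 on the minus strand, chr14:58244593-58244842 on the plus strand and chr17:32444260-32444509 on the plus strand, in the same order. The match in PSMD12 begins 165 bases before the start, that in PSMD11 116 bases before it, and the pair in PSMA3 35 and 18 bases before it. No match to these letters is in the POMP window. Among the 29 genes, 7 (24.1%) hold TGACNNNGC, against 13.2% of all 27303 genes in the table: PSMA4, PSMB3, PSMC5, PSMD3, PSMD5, PSMD12 and PSME4. The ZNF143 core is in 4 (13.8%, against 2.1%), namely PSMC3, PSMC4, PSMD2 and PSMD11, and CCAAT in 14 (48.3%, against 37.0%). These are descriptions of letters, not of bound sites. The windows end at RefSeq starts, which differ from those of GENCODE 29. In GENCODE 29 PSMD11 begins at 32444261, so all but the first base of its window, the marked match included, lies within the annotated gene. The windows of POMP, PSMD12 and PSMA3 also run partly into their GENCODE genes.

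With the ibufenac probe, 10 of the 34 genes were lower than in DMSO over the 3 times and none was higher. They spanned most roles: PSMA2 and PSMA3 of the alpha rings, PSMB1, PSMB2, PSMB6 and PSMB7 of the beta rings, PSMD1, PSMD11 and PSMD12 of the 19S particle, and POMP, the chaperone that helps core precursors join and mature. No ATPase gene passed. The falls were small, from -0.13 ± 0.05 for PSMB1 to -0.25 ± 0.04 for PSMA3 on the log2 scale (standard error, 9 libraries per arm). Of all tested genes, 13.2% changed and 7.31% fell in this comparison (edgeR quasi-likelihood test, Benjamini-Hochberg adjusted p under 0.05), and of the 3837 genes at least as abundant as PSME4, 15.6% fell. The median change of the 34 genes was -0.085, beside -0.010 for all tested genes and -0.029 for the 3837. In 29 of the 34 the sign was negative. In bulk RNA, fewer cells with these transcripts and less of them per cell cannot be told apart.

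**Figure D2:**
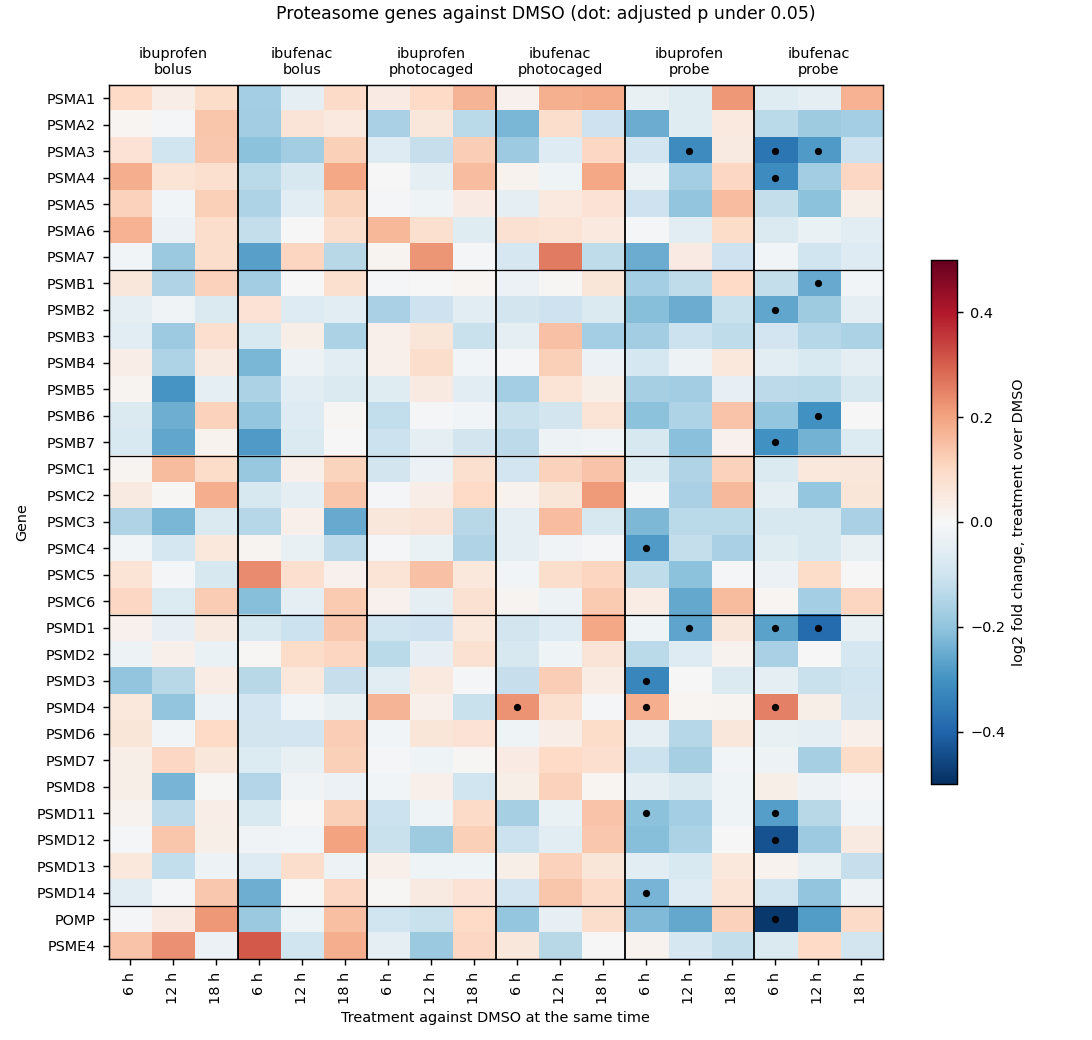
Log2 fold change of 33 proteasome genes (rows, by role) in each drug arm over DMSO at 6, 12 and 18 h (columns), with dots where the adjusted p was under 0.05. Blue cells and dots gather in the probe arms at 6 and 12 h, and PSMD4 is red at 6 h in both probe and both photocaged arms, with no dot for photocaged ibuprofen.

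The calls differed in how they held under other processing. PSMA3, PSMB7, PSMD1, PSMD12 and POMP passed in all 25 alternative fits, PSMB2 and PSMB6 in 24, PSMD11 in 22 and PSMA2 in 11. PSMB1 was not followed singly in those fits. Leaving out 1 library gave between 7 and 10 calls. Fits that leave out 1 library, here and below, also set the spread of the counts differently from the main fit. A count that moves in them may thus not come from the named library alone.

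At 6 h the ibufenac probe lowered 8 genes and raised 1, where 12.7% of all tested genes changed. Of the 3837 abundant genes, 22.5% changed and 15.6% fell. The share of the proteasome genes that changed was thus close to that of abundant genes. POMP was lowest of all relative to its control, at 72.8, 65.9 and 63.2 CPM with the ibufenac probe, against 101, 84.3 and 97.2 CPM in DMSO. The groups did not overlap, and the change was -0.48 ± 0.09 (adjusted p = 0.000179, edgeR). With the ibuprofen probe POMP had 76.2, 81.1 and 84.8 CPM, overlapping DMSO in its highest library, and did not pass (-0.22).

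PSMD12, a scaffold subunit of the 19S lid on chromosome 17 (67337916 to 67366627, GENCODE 29 on GRCh38), was at 118, 114 and 100 CPM with the ibufenac probe at 6 h, against 153, 147 and 151 CPM in DMSO. Every treated library was below every DMSO library (-0.44 ± 0.09, adjusted p = 0.000623, edgeR). PSMA3, an alpha subunit on chromosome 14 (58244831 to 58272012), had 75.7, 69.7 and 63.3 CPM, against 88.7, 88.1 and 90.9 CPM in DMSO, again without overlap (-0.36 ± 0.07, adjusted p = 0.000464). PSMD1, a scaffold subunit of the 19S base, had 204, 192 and 174 CPM, against 244, 218 and 225 CPM in DMSO. Its groups did not overlap either (-0.27 ± 0.06, adjusted p = 0.00311). PSMA4, PSMB2, PSMB7 and PSMD11 also fell, by -0.31, -0.26, -0.30 and -0.27.

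PSMD4, the 19S subunit that captures ubiquitin chains, went the other way. At 6 h it had 230, 211 and 232 CPM with the ibufenac probe, 209, 218 and 214 CPM with the ibuprofen probe, and 194, 183 and 187 CPM in DMSO. All 6 probe libraries lay above all 3 DMSO libraries. The rise was 0.25 ± 0.06 with the ibufenac probe (adjusted p = 0.00362, edgeR) and 0.18 ± 0.06 with the ibuprofen probe (adjusted p = 0.0461). Photocaged ibufenac gave 233, 211 and 216 CPM, also above every DMSO library (0.23 ± 0.06, adjusted p = 0.0294), and there 3.03% of all tested genes changed. Photocaged ibuprofen gave 206, 219.5 and 210.4 CPM, again above every DMSO library, but did not pass (0.17 ± 0.06, adjusted p = 0.228). Of the 3837 abundant genes, 6.93% rose at 6 h with the ibufenac probe, 5.34% with the ibuprofen probe and 2.84% with photocaged ibufenac. PSMD4 was the only 1 of 34 called higher in each, a share close to or below those of abundant genes. These arms share the same 3 DMSO libraries. The ibufenac probe call held in all 13 alternative fits, and the others in 7 and 9 of 13.

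**Figure D3:**
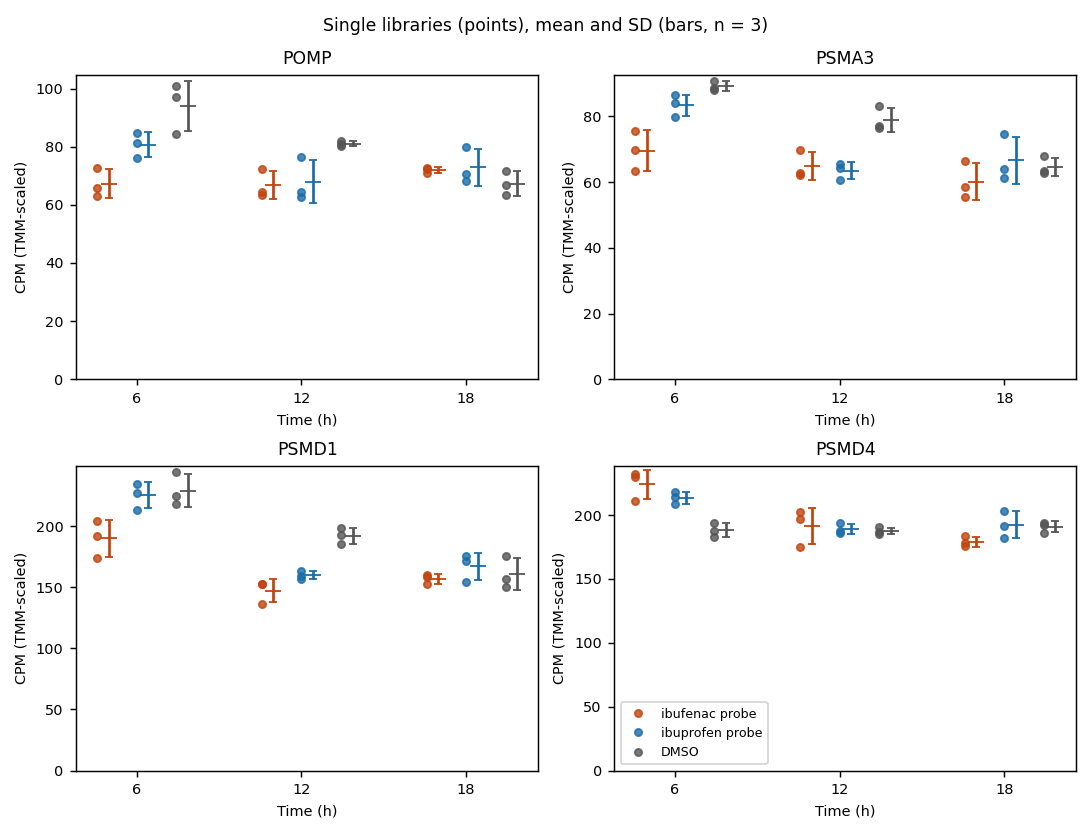
CPM of POMP, PSMA3, PSMD1 and PSMD4 in single libraries (points) with mean and SD (n = 3) at 6, 12 and 18 h in the ibufenac probe, ibuprofen probe and DMSO arms. DMSO libraries of POMP, PSMA3 and PSMD1 decline with time, and the ibufenac probe libraries at 6 h lie below the DMSO libraries at 6 h. PSMD4 is higher in both probe arms at 6 h.

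At 12 h the ibufenac probe lowered PSMA3, PSMB1, PSMB6 and PSMD1, that is 4 of 34, where 4.51% of all tested genes changed and 8.13% of the abundant ones fell. PSMD1 showed the clearest fall, with 153, 153 and 136 CPM, against 193, 199 and 185 CPM in DMSO (-0.39 ± 0.06, adjusted p = 7e-05, edgeR), and no overlap. PSMB6, the subunit with caspase-like activity, had 108, 113 and 135 CPM, against 148, 147 and 146 CPM in DMSO (-0.30 ± 0.09, adjusted p = 0.0327). One of its treated libraries was closer to DMSO than to the other two. Leaving out single libraries gave 1 to 3 calls: 1 without DMSO 12 h replicate 2 or ibufenac probe 12 h replicate 1, and 2 without DMSO 12 h replicate 1 or 3 or ibufenac probe 12 h replicate 2.

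At 18 h no proteasome gene passed with the ibufenac probe (edgeR), 1 reached an unadjusted p under 0.05, and there were 0 calls with DESeq2, where 2.69% of all tested genes changed. The change of the probe effect between 6 h and 18 h was itself tested, as the effect at 18 h minus that at 6 h, and 7.98% of all tested genes and 15.6% of the 3837 abundant genes passed. POMP (0.58 ± 0.13, adjusted p = 0.00268, edgeR), PSMD12 (0.48 ± 0.13, adjusted p = 0.0134) and PSMA4 (0.42 ± 0.12, adjusted p = 0.0165) moved up, and PSMD4 moved down (-0.34 ± 0.09, adjusted p = 0.00844). These 4 of 34 were a share not above that of abundant genes. Without ibufenac probe 6 h replicate 3, 2 members were called. In the other 5 drug arms this test called 0 members (edgeR), with 0 to 14 at an unadjusted p under 0.05, where 0.00% to 0.672% of all tested genes passed (0.0568% for photocaged ibuprofen, 0.636% for photocaged ibufenac, 0.0362% for the ibuprofen probe). The highest, for the ibufenac bolus, is 130 genes, and 4 without the libraries that stand apart. DESeq2 called 1, with photocaged ibuprofen. At 18 h POMP had 70.8, 72.4 and 72.6 CPM with the ibufenac probe, against 67.0, 71.7 and 63.2 CPM in DMSO. The probe libraries were at about their own 6 h level, and those of DMSO had come down to it.

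The composition of the libraries also differed at 6 h. Protein-coding genes held 70.7% to 72.1% of the counts in the ibufenac probe libraries at 6 h, against 75.7% to 78.2% in DMSO. In the ibuprofen probe libraries at 6 h they held 75.8% to 80.0%. The 10 most abundant genes held 26.7% to 28.2% with the ibufenac probe at 6 h, against 20.5% to 22.9% in DMSO. The part of this in the changes was not tested. With trends on gene length and GC content removed, the same comparison gave 8 lower and 1 higher member.

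With the ibuprofen probe, 4 of the 34 genes were lower than in DMSO over the 3 times and none was higher, where 8.43% of all tested genes changed, 4.61% fell, and 11.5% of the 3837 abundant genes fell. The share of the 34 was thus close to that of abundant genes. They were PSMB2, a beta subunit without proteolytic activity (-0.19 ± 0.05, adjusted p = 0.00512, edgeR), the ATPases PSMC4 (-0.19 ± 0.05, adjusted p = 0.0116) and PSMC3 (-0.16 ± 0.05, adjusted p = 0.0385), and the lid subunit PSMD11 (-0.13 ± 0.04, adjusted p = 0.0241). The median of the 34 was -0.075, beside -0.006 for all tested genes. Only 2 members were called when ibuprofen probe 6 h replicate 2, or replicate 2 of DMSO at 6 h or at 18 h, was left out, and with length and GC trends removed there were 9.

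PSMC4 ranged from 75.6 to 99.2 CPM over the 9 ibuprofen probe libraries, with a median of 85.5 CPM, against 85.1 to 113 CPM in DMSO with a median of 96.1 CPM. PSMB2 ranged from 83.8 to 122 CPM with a median of 98.8 CPM, against 98.6 to 147 CPM in DMSO with a median of 112 CPM. PSMC3 ranged from 132 to 160 CPM with a median of 147 CPM, against 147 to 186 CPM in DMSO with a median of 170 CPM. Over all times the ranges of the arms overlapped for each of the 3 genes.

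At 6 h the ibuprofen probe lowered PSMC4, PSMD3, PSMD11 and PSMD14 and raised PSMD4, 5 of 34, where 11.4% of all tested genes and 20.7% of the abundant ones changed, and 15.4% of the abundant ones fell. The shares of the 34 that changed and that fell were thus below those of abundant genes. PSMD14, the deubiquitinase of the 19S lid, changed by -0.23 ± 0.08 (adjusted p = 0.0375, edgeR), and PSMC4 by -0.28 ± 0.09 (adjusted p = 0.0246). PSMC4 had 84.7, 85.5 and 99.2 CPM, against 106, 113 and 109 CPM in DMSO, without overlap. The count was 0 without DMSO 6 h replicate 2 or 3 or ibuprofen probe 6 h replicate 1 or 2, and 3 without DMSO 6 h replicate 1. At 12 h PSMA3 (-0.31 ± 0.07, adjusted p = 0.0128) and PSMD1 (-0.26 ± 0.07, adjusted p = 0.017) fell, where 1.97% of all tested genes changed and 6.80% of the abundant ones fell. The share of the 34 at 12 h was thus close to that of abundant genes. There the count was 0 without DMSO 12 h replicate 2 or ibuprofen probe 12 h replicate 2, 1 without ibuprofen probe 12 h replicate 3, and 6 without ibuprofen probe 12 h replicate 1 or without both libraries that stand apart. PSMA3 at 12 h had 65.5, 60.6 and 64.4 CPM with the ibuprofen probe and 62.1, 69.8 and 62.9 CPM with the ibufenac probe, against 77.2, 83.1 and 76.5 CPM in DMSO. Both probe groups lay wholly below DMSO. At 18 h edgeR called none (1.78% of all tested genes), with 2 members at an unadjusted p under 0.05 and 1 called by DESeq2.

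The 3 catalytic subunit genes differed in how they passed. PSMB7, with trypsin-like activity, had 118, 114 and 123 CPM with the ibufenac probe at 6 h, against 150, 143 and 145 CPM in DMSO, with no overlap, and passed there and over the 3 times (-0.20 ± 0.05, adjusted p = 0.00211, edgeR). PSMB6 passed at 12 h and over the 3 times (-0.17 ± 0.05, adjusted p = 0.0199). PSMB5, with chymotrypsin-like activity and the target of bortezomib, had medians of 123 CPM with the ibufenac probe, 119 CPM with the ibuprofen probe and 129 CPM in DMSO. Its changes over the 3 times were -0.11 ± 0.05 (adjusted p = 0.103) and -0.13 ± 0.05 (adjusted p = 0.0799), and neither passed. Whether the 3 genes differed from each other was not tested.

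PSME4, which encodes the activator PA200, changed by -0.02 ± 0.07 (adjusted p = 0.898, edgeR) with the ibufenac probe and -0.06 ± 0.07 (adjusted p = 0.645) with the ibuprofen probe. Its medians were 109, 114 and 117 CPM in the ibufenac probe, ibuprofen probe and DMSO arms. The ATPase PSMC2 changed by -0.06 ± 0.04 (adjusted p = 0.413) and 0.00 ± 0.04 (adjusted p = 0.998). These intervals reach -0.16 for PSME4 and -0.15 for PSMC2 in the ibufenac probe arm.

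Neither bolus arm gave a call over the 3 times (edgeR), where 0.0258% of all tested genes changed with ibuprofen and 0.0103% with ibufenac. With the ibuprofen bolus 4 of the 34 genes and with the ibufenac bolus 3 were at an unadjusted p under 0.05, and DESeq2 made no call in either. The median changes were 0.008 and -0.031. At 6, 12 and 18 h both bolus arms gave 0 calls, with 2, 6 and 2 members at an unadjusted p under 0.05 for ibuprofen and 12, 1 and 4 for ibufenac. DESeq2 called 0 in each, save 1 with the ibufenac bolus at 18 h. In those comparisons 0.00%, 0.0103% and 0.0723% of all tested genes changed with ibuprofen, and 0.0258%, 0.00% and 5.03% with ibufenac. The last of these is 973 genes, against 86 without the libraries that stand apart. At 6 h the median with the ibufenac bolus was -0.141, and -0.043 without the libraries that stand apart. PSME4 at 6 h had 123, 124 and 201 CPM with the ibufenac bolus, the last in the replicate that stands apart, against 128, 113 and 120 CPM in DMSO. Without ibuprofen bolus 12 h replicate 1, 3 members were called with the ibuprofen bolus at 12 h. Without ibufenac bolus 6 h replicate 1 or replicate 2, 1 was called with the ibufenac bolus at 6 h, and likewise 1 at 18 h without ibufenac bolus 18 h replicate 2.

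Photocaged ibuprofen gave no call over the 3 times (edgeR), with 2 members at an unadjusted p under 0.05 and none called by DESeq2, where 4.28% of all tested genes changed. At 6, 12 and 18 h it also gave 0, with 3, 1 and 1 members at an unadjusted p under 0.05 and 0 by DESeq2, where 0.992%, 0.677% and 2.21% of all tested genes changed. Photocaged ibufenac raised PSMA1, an alpha subunit (0.13 ± 0.04, adjusted p = 0.0389), the only call over the 3 times, where 7.49% of all tested genes changed. That call was lost in 13 of 25 alternative fits. PSMA1 at 18 h had 135, 130 and 122 CPM, against 113, 116 and 112 CPM in DMSO, without overlap. At 6 h it had 157, 150 and 134 CPM, against 147, 136 and 152 CPM in DMSO, and the groups overlapped. At 12 and 18 h photocaged ibufenac gave 0 calls, with 2 and 5 members at an unadjusted p under 0.05 and 0 and 1 called by DESeq2, where 1.58% and 2.86% of all tested genes changed. Without DMSO 18 h replicate 2, 1 was called at 18 h, and without DMSO 6 h replicate 2 or 3 the 6 h call of PSMD4 was lost. The medians of the 34 genes over the 3 times were -0.008 for photocaged ibuprofen and 0.015 for photocaged ibufenac.

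Ibufenac and ibuprofen, which differ by the α-methyl group, were compared within each form over the 3 times and at each time, 12 comparisons in all, with p-values adjusted over all tested genes within each. In the photocaged form the pair gave 0 calls in all 4 comparisons (edgeR and DESeq2), with 0 members at an unadjusted p under 0.05 but for 1 at 18 h. Of all tested genes 0.0362% changed over the 3 times and 0.00% at each time. Over the 3 times the 95% intervals of the 33 genes lay between -0.18 and 0.20 on the log2 scale, with a median half-width of 0.09, and all spanned 0. A p that misses the threshold does not show that the drugs act alike, but differences beyond that range were not within these intervals.

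In the probe form, PSMD1 was lower with ibufenac than with ibuprofen over the 3 times (-0.15 ± 0.04, adjusted p = 0.0142, edgeR), 1 of 34, where 2.82% of all tested genes changed. The call was lost without ibufenac probe 6 h replicate 3 and with length and GC trends removed, and 2 members were called without ibufenac probe 6 h replicate 1, 12 h replicate 2 or 18 h replicate 3. The 95% intervals of the 33 genes lay between -0.23 and 0.25. At 6 h 6 of 34 differed, where 23.6% of all tested genes and 37.5% of the 3837 abundant genes did. The share of the 34 was thus below that of abundant genes. PSMA3, PSMA4, PSMB7, PSMD1 and POMP were lower with the ibufenac probe (-0.22 to -0.29), and PSMD3 was higher (0.28 ± 0.10, adjusted p = 0.0386). PSMD3, a lid scaffold singled out after its values were seen, had 198, 205 and 208 CPM with the ibufenac probe and 157, 161 and 186 CPM with the ibuprofen probe, without overlap. The count was 0 without ibufenac probe 6 h replicate 3, and 3 without replicate 2 of either probe group at 6 h or with length and GC trends removed. At 12 and 18 h the probes gave 0 calls (edgeR; 1 and 2 members at an unadjusted p under 0.05, 1 and 0 by DESeq2), where 1.92% and 0.00% of all tested genes differed, and intervals reached from -0.35 to 0.49 and from -0.41 to 0.30.

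As a bolus, the pair gave 0 calls over the 3 times and at 12 and 18 h (edgeR and DESeq2), with 7, 9 and 3 members at an unadjusted p under 0.05 and 0.00%, 0.0362% and 0.00% of all tested genes called. At 6 h the alpha genes PSMA1, PSMA3, PSMA4, PSMA5 and PSMA6 and the ATPase gene PSMC6 were lower with ibufenac (-0.27 to -0.32), 6 of 34, where 2.30% of all tested genes differed and 5.13% of the 3837 abundant genes were lower. PSMA1 had 142, 128 and 118 CPM with the ibufenac bolus, against 166, 154 and 147 CPM with the ibuprofen bolus, without overlap. The count was 0 without ibufenac bolus 6 h replicate 3, without ibuprofen bolus 6 h replicate 1 or 2, with length and GC trends removed, when only these arms were fitted, and without the libraries that stand apart. At 12 h 4 members were called without ibuprofen bolus 12 h replicate 1.

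The probe form was also set against the photocaged form of the same drug over the 3 times. For ibufenac, PSMA3, PSMA4, PSMC2, PSMD1, PSMD12 and PSMD14 were lower with the probe, 6 of 34, where 2.68% of all tested genes differed, 1.83% were lower, and 4.30% of the 3837 abundant genes were lower. PSMD1 had the clearest difference (-0.24 ± 0.04, adjusted p = 3.8e-05, edgeR), and it passed in all 25 alternative fits. Without single libraries the count ran from 2 to 8: it was 2 without ibufenac photocaged 6 h replicate 1 or ibufenac probe 6 h replicate 3, and 3 without ibufenac photocaged 12 h replicate 3, ibufenac photocaged 18 h replicate 1, or ibufenac probe 18 h replicate 1 or 2. With these arms fitted alone it was 1. For ibuprofen, 0 passed (edgeR and DESeq2), with 11 members at an unadjusted p under 0.05, where 0.0982% of all tested genes differed. Of the 34 genes 32 were lower with the probe for each drug, with medians of -0.107 for ibufenac and -0.065 for ibuprofen. Whether the 2 drugs differed in this was not tested.

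Proteasome genes fell with time in the DMSO cultures, which received no drug. In DMSO, 23 of 34 were lower at 18 h than at 6 h and none was higher, where 17.5% of all tested genes changed, 10.0% fell, and 31.3% of the 3837 abundant genes fell. The median change of the 34 was -0.317, beside 0.014 for all tested genes and -0.131 for the 3837. Falls were found in 5 of 7 alpha, 4 of 7 beta, 4 of 6 ATPase and 9 of 12 non-ATPase genes and in POMP. At 12 h against 6 h the count was 7, where 3.82% of all tested genes changed: PSMB2, PSMC2, PSMD1, PSMD3, PSMD6, PSMD11 and PSMD14. The 12 h count ran from 2 to 5 when each DMSO library was left out, and was 17 with length and GC trends removed.

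PSMD11, on chromosome 17 (32444261 to 32483318), had 156, 164 and 149 CPM at 6 h, 124, 125 and 120 CPM at 12 h, and 108, 113 and 95.1 CPM at 18 h in DMSO. The 3 times did not overlap, and the change at 18 h over 6 h was -0.57 ± 0.07 (adjusted p = 8.63e-09, edgeR), the steepest of the 33 genes. PSMD1 had 244, 218 and 225 CPM at 6 h, 193, 199 and 185 CPM at 12 h, and 157, 175 and 150.4 CPM at 18 h (-0.51 ± 0.06, adjusted p = 4.53e-08). POMP had 101, 84.3 and 97.2 CPM at 6 h, 82.0, 80.8 and 80.4 CPM at 12 h, and 67.0, 71.7 and 63.2 CPM at 18 h (-0.48 ± 0.09, adjusted p = 0.000109). PSMD4 did not pass, with 194, 183 and 187 CPM at 6 h, 190.3, 185 and 187 CPM at 12 h, and 194, 193 and 186 CPM at 18 h. Its change was 0.02 ± 0.06 (95% interval -0.10 to 0.15, adjusted p = 0.872), and its groups overlapped. The catalytic gene PSMB5 did not pass (-0.12 ± 0.08, adjusted p = 0.343), whereas PSMB6 (-0.31) and PSMB7 (-0.30) fell.

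**Figure D4:**
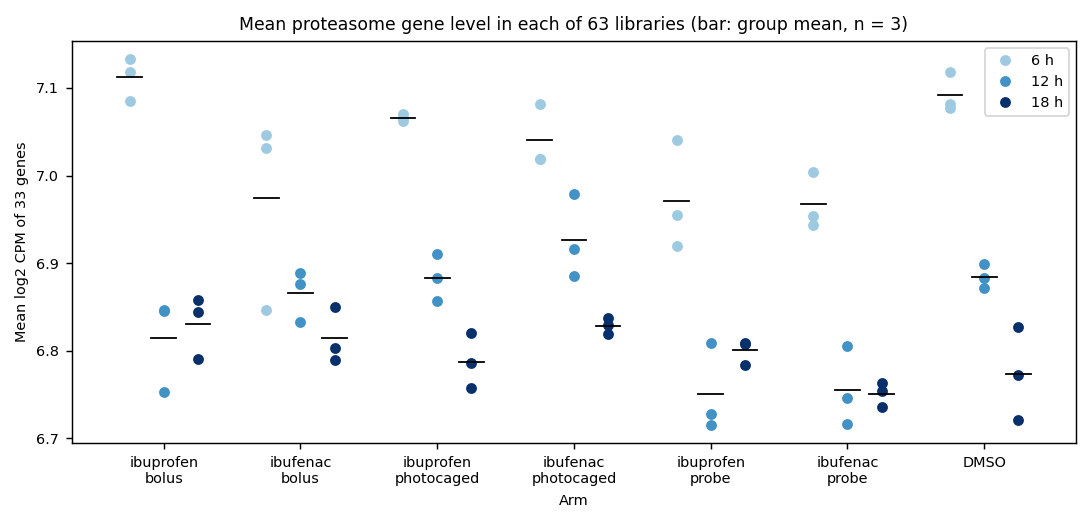
Mean log2 CPM of 33 proteasome genes in each of the 63 libraries, by arm and time, with bars for group means. In every arm the 3 libraries at 6 h lie above those at 18 h, except that the ibufenac bolus library at 6 h that stands apart (replicate 3) lies among the 18 h libraries.

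The composition of the DMSO libraries also moved with time. Protein-coding genes held 70.4% to 71.0% of the counts at 18 h, against 75.7% to 78.2% at 6 h, and the 10 most abundant genes held 27.7% to 28.1%, against 20.5% to 22.9%. Its part in the fall was not tested. With length and GC trends removed, 24 of 34 fell, and with RLE factors 22. In the drug arms the protein-coding share took different courses. With the ibuprofen bolus it was 77.9% to 79.9% at 6 h and 68.4% to 71.8% at 18 h. The ibuprofen probe had 75.8% to 80.0% and 70.2% to 74.6%, and the ibufenac probe 70.7% to 72.1% and 72.9% to 74.4%. In the ibufenac bolus and both photocaged arms the ranges at 6 h and 18 h overlapped.

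The same comparison, 18 h over 6 h, was made in each of the 6 drug arms and was added after the data were seen. The count of members that fell, of 34, was 22 with the ibuprofen bolus, 8 with the ibufenac bolus, 23 with photocaged ibuprofen, 12 with photocaged ibufenac, 9 with the ibuprofen probe and 18 with the ibufenac probe, and none was higher in any. The shares of all tested genes that changed were 23.4%, 19.2%, 12.2%, 10.1%, 14.4% and 22.9% in the same order, and the shares of abundant genes that fell were 34.0%, 21.7%, 25.6%, 729 of 3837 genes, 23.6% and 26.9%. For the ibufenac bolus and the ibuprofen probe, 8 and 9 of 34 are thus close to the shares of abundant genes. With the ibufenac bolus 3706 genes changed, against 2200 without the libraries that stand apart. PSMC2, PSMD1 and PSMD11 fell in all 7 arms, DMSO included, while PSMA7, PSMB4, PSMB5 and PSMD5 passed in none. With the ibufenac bolus the count was 13 without 6 h replicate 3 and 11 without both libraries that stand apart. With photocaged ibufenac it was 6 without 6 h replicate 1 and 7 without 18 h replicate 2, and with the ibufenac probe it was 10 without 18 h replicate 1.

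**Figure D5:**
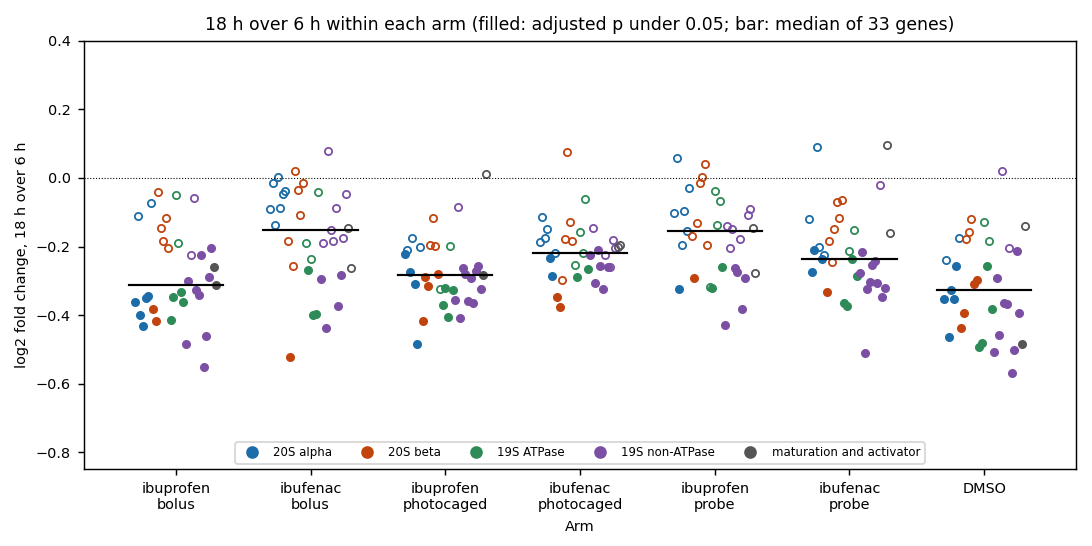
Log2 fold change at 18 h over 6 h for 33 proteasome genes within each arm, coloured by role, filled where the adjusted p was under 0.05, with bars for the median of the 33 genes. Nearly all points are below 0 in every arm, and POMP is slightly above 0 (0.10) in the ibufenac probe arm.

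POMP differed in its course between arms. It was 0.10 ± 0.09 (adjusted p = 0.521, edgeR) at 18 h over 6 h with the ibufenac probe and -0.48 in DMSO, and the difference between these is the tested 0.58 given above. For PSMD12 the values were -0.02 ± 0.09 (adjusted p = 0.901) and -0.50. PSMD12 had 104, 111 and 114 CPM with the ibufenac probe at 18 h, against 118, 114 and 100 CPM with it at 6 h, and the groups overlapped.

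Other genes of the pathway were read from 5 lists with 51 genes, 47 of which were tested. With the ibufenac probe 1 rose and 7 fell over the 3 times, where 7.31% of all tested and 15.6% of abundant genes fell. With the ibuprofen probe none rose and 5 fell, where 4.61% of all tested and 11.5% of abundant genes fell. The shares of the 47 that fell were thus close to those of abundant genes. NFE2L1, which encodes NRF1, rose with the ibufenac probe (0.18 ± 0.04, adjusted p = 0.00104, edgeR), and DDI2, the protease that activates it, fell (-0.14 ± 0.04, adjusted p = 0.0115). At 6 h alone the changes were 0.30 ± 0.07 (adjusted p = 0.00114, edgeR) and -0.35 ± 0.07 (adjusted p = 0.000168), and whether they differed from those at other times was not tested. With this probe at 6 h, 2 of the 47 rose and 8 fell, where 6.93% of abundant genes rose and 15.6% fell. These shares of the 47 were thus close to or below those of abundant genes. NFE2L3, a relative of NFE2L1, fell by -1.25 ± 0.20 (adjusted p = 7.99e-06) at 6 h. With the ibuprofen probe NFE2L1 changed by 0.05 ± 0.04 (adjusted p = 0.533) and DDI2 by -0.10 ± 0.04 (adjusted p = 0.0965) over the 3 times, and neither passed.

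Among the other subunits, PSME1 and PSME2, which form the PA28 activator, fell with the ibufenac probe (-0.28 ± 0.07, adjusted p = 0.0054, and -0.26 ± 0.07, adjusted p = 0.00827, edgeR), as did the small 19S subunit SEM1 (-0.24 ± 0.07, adjusted p = 0.012). PSME3, the nuclear PA28 activator, did not pass over the 3 times (-0.12 ± 0.05, adjusted p = 0.0832). ADRM1, a ubiquitin receptor, fell with the ibuprofen probe at 6 h (-0.71 ± 0.23, adjusted p = 0.0314) and had 0.44 ± 0.22 (adjusted p = 0.204) with the ibufenac probe. With the ibuprofen probe at 6 h, 3 of the 47 rose and 6 fell, shares close to those of abundant genes (5.34% rose and 15.4% fell). The immunoproteasome genes PSMB8 and PSMB9 were too low to test, with at most 5 and 14 counts in any library, while PSMB10 fell with the ibuprofen probe (-0.56 ± 0.17, adjusted p = 0.0318). RAD23B, a shuttle that brings ubiquitinated proteins to the proteasome, fell with both probes (-0.14 and -0.11). With the ibufenac and ibuprofen probes, the ubiquitin gene UBB (-0.02 and -0.01) and the autophagy receptor gene SQSTM1 (0.07 and -0.10) did not pass over the 3 times. UFD1, a p97 cofactor, fell with the ibufenac probe (-0.20 ± 0.04, adjusted p = 0.00095), and UBA1, the ubiquitin-activating enzyme, with the ibuprofen probe (-0.15 ± 0.04, adjusted p = 0.0198).

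In DMSO at 18 h over 6 h, 2 of the 47 pathway genes rose and 11 fell, where 10.0% of all tested genes and 31.3% of the abundant ones fell. The p97 gene VCP (-0.43 ± 0.05, adjusted p = 4.51e-08, edgeR), UBE3C, a ligase of the proteasome (-0.41 ± 0.05, adjusted p = 1.16e-08), and PSME3 (-0.53 ± 0.08, adjusted p = 1.35e-06) fell, and so did DDI2 (-0.38 ± 0.07, adjusted p = 3.57e-05). PSME1 rose (0.42 ± 0.12, adjusted p = 0.012). NFE2L1 did not pass (0.04 ± 0.07, adjusted p = 0.793).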

How the data were processed

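RNA-seq of 63 libraries from HEK293T cells expressing Halo was analysed as 21 groups of 3. Per the labels, total RNA was depleted of ribosomal RNA and made into stranded libraries. The authors deposited expected counts, 22.6% of values of at least 1 not being whole, and FPKM, which were used only for levels between genes. Aligner, counter, strand setting and genome build were not given in the sources used here. Gene positions are from GENCODE 29 on GRCh38 and promoters from RefSeq.

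Counts were rounded and filtered (filterByExpr, minimum count 10), leaving 19352 genes. They were tested with edgeR 4.0.16 (R 4.3.3, limma 3.58.1; TMM factors, quasi-likelihood, two-sided, Benjamini-Hochberg over all tested genes in each of 52 comparisons, threshold 0.05). CPM are computed from these counts. Totals of 12139918 to 38377150 counts per library set the precision. Between replicates of a group the mean chi-square value per gene was 5.09 to 57.82 over 63 pairs, above what sampling noise alone gives. No p-value was computed. The value includes differences in library composition and does not show whether replicates were separate cultures.

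Alternatives were RLE factors, DESeq2 1.42.0, no filter, a replicate block, the compared arms only, removal of length and GC trends, leaving out each library, and leaving out 2 libraries that stand apart. The last and the 18 h against 6 h comparisons in drug arms were added after the data were seen. Fits that leave out 1 library kept the tested genes and were given the dispersion trend of the full fit, which the main fit was not. They thus change the method as well as the libraries. For DMSO at 12 h over 6 h each such fit gave fewer calls (2 to 5) than the main fit (7). On simulated data the main fit recovered 39% of 1.25-fold, 84% of 1.5-fold and 95% of 2-fold changes for the ibufenac probe against DMSO over 3 times (19352 genes). For single times at 6 h it recovered 7%, 46% and 79%. The changes were planted in genes drawn at random over a wide range of levels, with spread taken from the trend over all genes. These rates therefore do not give the recovery for the abundant members.

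Members, lists and tests were chosen with earlier results of these data known. Values per library were given for up to 3 members of each role with the smallest adjusted p over the 3 times, and for PSMB5, PSMD4, POMP and PSME4. Other members and pathway genes named have single values or were chosen after their values were seen. One gene of the pathway lists is counted in their totals but not reported here.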

Additional observations from a re-analysis of the deposited data

Results flagged for a closer look

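For 4 of 34 proteasome genes the difference between the ibufenac probe and DMSO itself differed between 18 h and 6 h, by the interaction test across all genes (edgeR quasi-likelihood, Benjamini-Hochberg adjusted), where 7.98% of all tested genes and 15.6% of the 3837 abundant genes passed. The share of the 34 was thus not above that of abundant genes. The effect at 18 h minus that at 6 h was 0.58 ± 0.13 for POMP (adjusted p = 0.00268), 0.48 ± 0.13 for PSMD12 (adjusted p = 0.0134) and 0.42 ± 0.12 for PSMA4 (adjusted p = 0.0165) on the log2 scale. For PSMD4 it was -0.34 ± 0.09 (adjusted p = 0.00844). POMP, PSMD12 and PSMA4 were lower with the probe at 6 h and PSMD4 was higher, and none of the 4 passed at 18 h. The protein-coding share of the counts was 70.7% to 72.1% with the ibufenac probe at 6 h and 75.7% to 78.2% in DMSO at 6 h, and its part was not tested.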

How the results depend on the processing

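The replicate block moved none of the 52 counts of called members or the 52 medians past the limits used (a factor of 1.5 for a count, the pooled replicate SD for a median). With the block, 10 members were called for the ibufenac probe over the 3 times, as without it. Same-numbered libraries at one time had a median correlation of 0.003 (-0.103 to 0.128 over 189 pairs), so the numbers do not pair them. Of 105 called gene-level results, 1335 alternative values kept their call, 276 lost it and 0 reversed. The cause was not tested for any change below, where the value reported above stands in parentheses. Fits without single libraries also set the spread differently from the main fit, so their changes may not come from the library alone. With only the compared arms fitted, the count of members called was 1 (reported 7) in DMSO 12 h vs 6 h, 4 (reported 8) in ibufenac bolus 18 h vs 6 h, 0 (reported 6) in ibufenac bolus vs ibuprofen bolus, 6 h, 0 (reported 1) in ibufenac photocaged vs DMSO, 3 times, 1 (reported 6) in ibufenac probe vs ibufenac photocaged, 3 times, 1 (reported 0) in ibufenac probe vs ibuprofen probe, 12 h, 14 (reported 9) in ibuprofen probe 18 h vs 6 h. With DESeq2, the count of members called was 1 (reported 0) in ibufenac bolus vs DMSO, 18 h, 1 (reported 0) in ibufenac photocaged vs DMSO, 18 h, 2 (reported 1) in ibufenac photocaged vs DMSO, 3 times, 1 (reported 0) in ibufenac probe vs ibuprofen probe, 12 h, 1 (reported 0) in ibuprofen photocaged vs DMSO, 18 h minus 6 h, 4 (reported 2) in ibuprofen probe vs DMSO, 12 h, 1 (reported 0) in ibuprofen probe vs DMSO, 18 h. With length and GC trends removed, the count of members called was 17 (reported 7) in DMSO 12 h vs 6 h, 20 (reported 8) in ibufenac bolus 18 h vs 6 h, 0 (reported 6) in ibufenac bolus vs ibuprofen bolus, 6 h, 3 (reported 1) in ibufenac photocaged vs DMSO, 6 h, 0 (reported 1) in ibufenac probe vs ibuprofen probe, 3 times, 3 (reported 6) in ibufenac probe vs ibuprofen probe, 6 h, 1 (reported 0) in ibuprofen photocaged vs DMSO, 3 times, 14 (reported 9) in ibuprofen probe 18 h vs 6 h, 9 (reported 4) in ibuprofen probe vs DMSO, 3 times. With length and GC trends removed, the median was -0.223 (reported -0.15) in ibufenac bolus 18 h vs 6 h, -0.015 (reported 0.085) in ibufenac bolus vs DMSO, 18 h, 0.069 (reported 0.197) in ibufenac bolus vs DMSO, 18 h minus 6 h, -0.091 (reported -0.141) in ibufenac bolus vs DMSO, 6 h, -0.048 (reported -0.161) in ibufenac bolus vs ibuprofen bolus, 6 h, 0.006 (reported 0.067) in ibufenac photocaged vs DMSO, 18 h, 0.075 (reported 0.119) in ibufenac photocaged vs DMSO, 18 h minus 6 h, -0.294 (reported -0.235) in ibufenac probe 18 h vs 6 h, -0.081 (reported -0.036) in ibufenac probe vs DMSO, 18 h, -0.013 (reported 0.074) in ibufenac probe vs DMSO, 18 h minus 6 h, 0.101 (reported 0.01) in ibufenac probe vs ibuprofen probe, 6 h, -0.08 (reported -0.034) in ibuprofen bolus vs DMSO, 12 h, 0.016 (reported 0.069) in ibuprofen bolus vs DMSO, 18 h, -0.047 (reported 0.025) in ibuprofen photocaged vs DMSO, 18 h, 0 (reported 0.047) in ibuprofen photocaged vs DMSO, 18 h minus 6 h, -0.035 (reported 0.032) in ibuprofen probe vs DMSO, 18 h. With no low-count filter, the count of members called was 3 (reported 7) in DMSO 12 h vs 6 h, 2 (reported 0) in ibufenac bolus vs ibuprofen bolus, 12 h, 3 (reported 6) in ibufenac bolus vs ibuprofen bolus, 6 h, 5 (reported 12) in ibufenac photocaged 18 h vs 6 h, 0 (reported 1) in ibufenac photocaged vs DMSO, 3 times, 0 (reported 1) in ibufenac photocaged vs DMSO, 6 h, 14 (reported 23) in ibuprofen photocaged 18 h vs 6 h, 0 (reported 2) in ibuprofen probe vs DMSO, 12 h, 3 (reported 5) in ibuprofen probe vs DMSO, 6 h. With no low-count filter, the median was -0.028 (reported 0.017) in ibufenac probe vs ibuprofen probe, 12 h, -0.253 (reported -0.306) in ibuprofen bolus 18 h vs 6 h. With RLE factors, the count of members called was 3 (reported 5) in ibuprofen probe vs DMSO, 6 h. Without the libraries that stand apart, the count of members called was 0 (reported 6) in ibufenac bolus vs ibuprofen bolus, 6 h, 1 (reported 0) in ibufenac photocaged vs DMSO, 18 h, 2 (reported 1) in ibufenac photocaged vs DMSO, 3 times, 1 (reported 0) in ibufenac probe vs ibuprofen probe, 12 h, 6 (reported 2) in ibuprofen probe vs DMSO, 12 h. Without the libraries that stand apart, the median was 0.129 (reported 0.197) in ibufenac bolus vs DMSO, 18 h minus 6 h, -0.043 (reported -0.141) in ibufenac bolus vs DMSO, 6 h, -0.082 (reported -0.161) in ibufenac bolus vs ibuprofen bolus, 6 h. Leaving out single libraries, the count ran from 0 to 1 in ibufenac photocaged vs DMSO, 3 times, 2 to 5 in ibuprofen probe vs DMSO, 3 times, 0 to 3 in ibuprofen bolus vs DMSO, 12 h, 0 to 1 in ibufenac bolus vs DMSO, 6 h, 0 to 1 in ibufenac bolus vs DMSO, 18 h, 0 to 1 in ibufenac photocaged vs DMSO, 6 h, 0 to 1 in ibufenac photocaged vs DMSO, 18 h, 0 to 7 in ibuprofen probe vs DMSO, 6 h, 0 to 6 in ibuprofen probe vs DMSO, 12 h, 1 to 3 in ibufenac probe vs DMSO, 12 h, 0 to 9 in ibufenac bolus vs ibuprofen bolus, 6 h, 0 to 4 in ibufenac bolus vs ibuprofen bolus, 12 h, 0 to 2 in ibufenac probe vs ibuprofen probe, 3 times, 0 to 7 in ibufenac probe vs ibuprofen probe, 6 h, 2 to 8 in ibufenac probe vs ibufenac photocaged, 3 times, 0 to 2 in ibufenac bolus vs DMSO, 18 h minus 6 h, 2 to 6 in ibufenac probe vs DMSO, 18 h minus 6 h, 2 to 5 in DMSO 12 h vs 6 h, 8 to 13 in ibufenac bolus 18 h vs 6 h, 6 to 13 in ibufenac photocaged 18 h vs 6 h, 10 to 16 in ibufenac probe 18 h vs 6 h. Leaving out single libraries, the median ran from -0.183 to -0.049 in ibufenac bolus vs DMSO, 6 h, 0.014 to 0.084 in ibufenac photocaged vs DMSO, 12 h, -0.152 to -0.095 in ibuprofen probe vs DMSO, 6 h, -0.197 to -0.121 in ibuprofen probe vs DMSO, 12 h, -0.169 to -0.081 in ibufenac probe vs DMSO, 12 h, -0.227 to -0.079 in ibufenac bolus vs ibuprofen bolus, 6 h, -0.065 to -0.003 in ibufenac photocaged vs ibuprofen photocaged, 6 h, -0.018 to 0.055 in ibufenac probe vs ibuprofen probe, 6 h, -0.029 to 0.07 in ibufenac probe vs ibuprofen probe, 12 h, 0.13 to 0.227 in ibufenac bolus vs DMSO, 18 h minus 6 h, -0.189 to -0.08 in ibufenac bolus 18 h vs 6 h.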
